A study of Mus musculus with 9 samples.

Results

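The endothelin system was followed through the genes of its receptors, Ednrb and Ednra, its ligands, Edn1 and Edn3, and the enzymes that mature the ligands, Ece1 and Ece2. These 6 genes were taken by name from the 22068 genes of the count table. RNA-seq was performed on 9 poly-A libraries of primary mouse embryonic fibroblasts (MEFs) of strain C57Bl/6 at passage 2, which were electroporated with 1 of 3 plasmids, each with a puromycin-resistance gene, and kept under puromycin for 5 days with a recovery of 48 h. The 3 control libraries came from cells given the plasmid with puromycin resistance alone, the 3 eutherian CRX libraries from cells with the human CRX gene and the 3 metatherian CRX libraries from cells with its opossum orthologue, both tagged with V5. CRX is a homeodomain transcription factor best known from photoreceptors, and the question was whether the opossum protein acts on the transcriptome otherwise than the human protein does. The protein is expressed here from a plasmid in a fibroblast, a cell that does not normally use it. The mouse Crx gene had 0 counts in all 3 control libraries, 627, 995 and 313 counts in the eutherian libraries and 4, 0 and 0 counts in the metatherian libraries, so the counts check the presence of the human transgene only.

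Endothelins are short peptides cut from larger precursors, and they act on neighbouring cells through a pair of G protein-coupled receptors. Furin-type proteases make the inactive intermediate, and the membrane-bound metalloproteases Ece1 and Ece2 cut it to the active peptide. Ednra, the receptor of smooth muscle and of much connective tissue, prefers the peptides of Edn1 and Edn2 and drives contraction and growth through Gq and phospholipase C, while Ednrb binds every endothelin alike, is prominent in endothelium and in the neural crest cells that become melanocytes and enteric neurons, and also clears the peptide. In the embryo, Edn1 and Ednra pattern the lower jaw, and Edn3 and Ednrb are needed for pigment and for the enteric nervous system. The study counts Ednrb among genes with roles between embryo and endometrium.

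Ednrb lies on the minus strand of chr14:103814615-103844476 (GRCm38), where 8 exon intervals with 4355 bases were counted, and Ednra on the minus strand of chr8:77663029-77724452, with 8 exon intervals and 3643 bases. Edn1 is at chr13:42301270-42307989, Edn3 at chr2:174760758-174784042, Ece1 at chr4:137862216-137965229 and Ece2 at chr16:20611601-20646480, all on the plus strand. The promoters of both receptors are shown because CRX binds TAATCC, and only one of the windows carries these letters. The windows are the 250 bases before the RefSeq start (GRCm38.p6), written 5′ to 3′ on the strand of the gene, Ednrb at chr14:103843702-103843951 and Ednra at chr8:77724453-77724702, with capitals at the match.
Ednrb: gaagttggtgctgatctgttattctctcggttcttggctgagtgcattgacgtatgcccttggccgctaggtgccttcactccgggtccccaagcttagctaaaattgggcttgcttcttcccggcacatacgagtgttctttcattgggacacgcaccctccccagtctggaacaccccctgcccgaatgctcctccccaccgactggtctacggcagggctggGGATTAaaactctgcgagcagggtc
Ednra: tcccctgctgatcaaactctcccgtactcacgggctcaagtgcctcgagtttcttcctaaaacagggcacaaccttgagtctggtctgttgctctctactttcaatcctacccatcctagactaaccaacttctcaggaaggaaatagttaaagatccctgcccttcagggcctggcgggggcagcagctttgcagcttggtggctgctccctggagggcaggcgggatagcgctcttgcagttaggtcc
The match upstream of Ednrb is GGATTA, the reverse complement of TAATCC, at 25 to 20 bases before the start. TAATCC was searched on both strands, and 1 of 9 windows of the 6 genes (Ece1 has several starts) held it. Over all RefSeq windows of the same length, 2054 of 32851 held it, 6.25%, so the match is a description and not a known binding site. The counted exons of Ednrb reach further upstream than this start, so transcripts from another start are included in its counts.

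The libraries held 54145701 to 94699657 counts, and 3 counts in a library, taken as the limit of detection, corresponded to 0.0324 to 0.0578 CPM, counts scaled to the size of the library. The libraries numbered 3 stood apart from the others. In the eutherian group, the SD over genes of the log2 difference in CPM was 0.148 between libraries 1 and 2 but 0.851 and 0.887 between library 3 and each of these. In the cultures, summed fibroblast markers (9 genes, none at 0) ranged from 23992 to 33043 CPM in control libraries, from 7675 to 23403 CPM in eutherian libraries and from 8404 to 18229 CPM in metatherian libraries. Summed smooth muscle and pericyte markers (7 genes) ranged from 2586 to 4413 CPM, from 757 to 1936 CPM and from 1061 to 1434 CPM in the same order, so both sums were lower in every CRX library than in every control library. Such sums follow their most abundant genes. In control, mean CPM was 8912 for Col1a1, 6540 for Col3a1, 6046 for Col1a2 and 5173 for Vim, and 1908 for Acta2 and 1059 for Tagln. The lists were mixed within, and with metatherian CRX the log2 fold changes ran from -2.27 for Col3a1 to 0.58 for Pdgfra among fibroblast markers and from -3.15 for Myh11 to 2.64 for Rgs5 among smooth muscle and pericyte markers. The part of these shifts in the results below was not tested, and in bulk RNA fewer cells of a type and less RNA per cell cannot be told apart.

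Per length of transcript, Ece1 was the most abundant of the genes and both receptors were expressed at similar levels. In control cells, the mean levels in FPKM, counts scaled to exon length and library size, were 64.5 ± 6.97 for Ece1, 7.57 ± 3.80 for Ednra, 6.87 ± 1.82 for Ednrb, 4.62 ± 0.568 for Ece2 and 1.56 ± 0.110 for Edn1 (SD, n = 3), and Edn3 was at 0. Ednra and Ednrb did not differ beyond their spread, and the lowest Ednrb library, at 4.91 FPKM, was just below the highest Ece2 library, at 4.96 FPKM. Ece1 stood above and Edn1 below every other measured member in each of the control libraries. Ece2 must be read with care, because its counted exons share 3432 bases with Gm49333 and 984 bases with Eef1akmt4, both annotated on the same strand and neither with an entry of its own in the table.

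**Figure D1:**
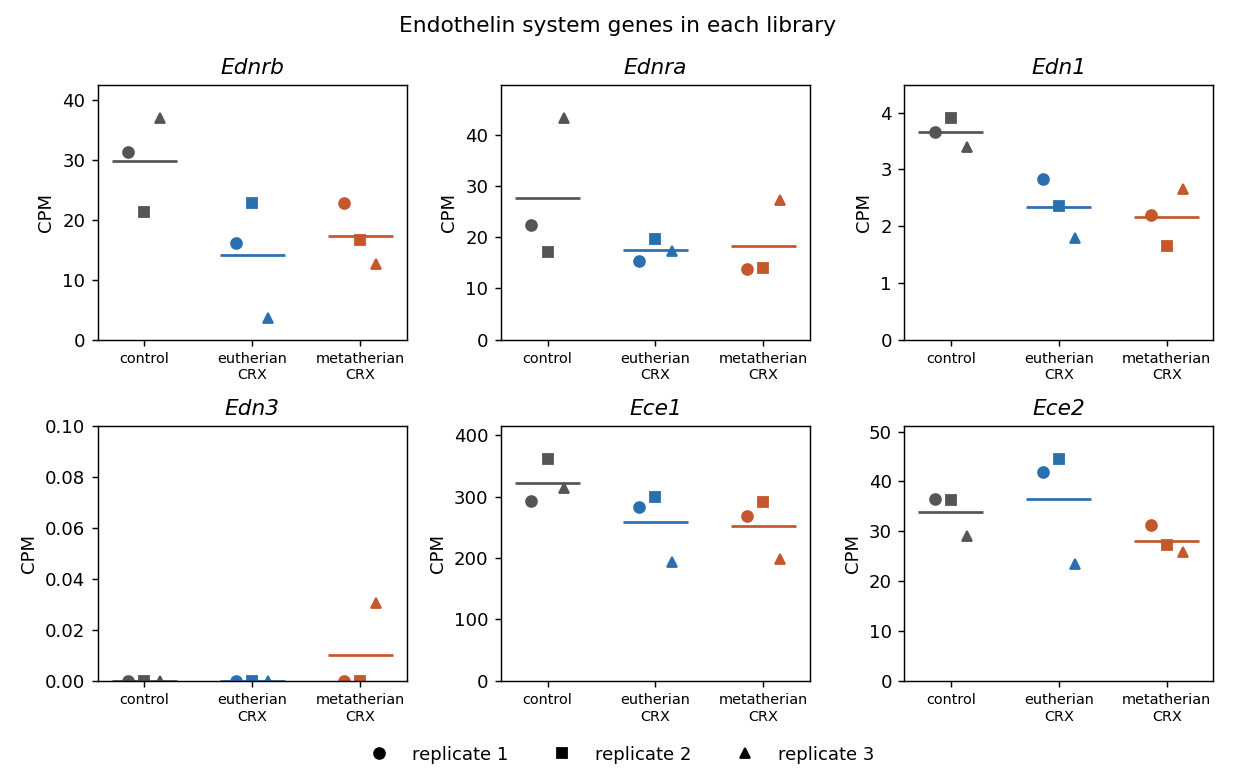
CPM (vertical axis, each panel from 0) of the 6 genes in the 3 control, 3 eutherian CRX and 3 metatherian CRX libraries; symbols mark the replicate number and bars the group mean. Ednrb of eutherian library 3 is at 3.61 CPM, below all other libraries, and the 3 control libraries of Edn1 lie above all 6 CRX libraries.

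Ednrb was lower on average with either CRX than in control, but its libraries varied so much that neither difference passed the test. Its level was 31.4, 21.4 and 37.0 CPM in control libraries 1 to 3, 16.1, 22.9 and 3.61 CPM in the eutherian libraries and 22.9, 16.7 and 12.6 CPM in the metatherian libraries. Both CRX groups overlapped control, since control library 2 was below the highest library of each. The eutherian value of 3.61 CPM, from 274 counts, was far below all others.

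With metatherian CRX, the log2 fold change of Ednrb against control was -0.93 ± 0.56 (SE; 95% interval -2.27 to 0.41), and its Benjamini-Hochberg adjusted p in edgeR's quasi-likelihood test was 0.406. With eutherian CRX it was -1.33 ± 0.60 (-2.75 to 0.09), with an adjusted p of 0.613 in the same test. Set against the eutherian libraries, the metatherian ones were 0.40 ± 0.57 higher on the log2 scale (-0.95 to 1.75; edgeR adjusted p = 0.833). The intervals against control hold no difference as well as a fall by more than 2 log2 units against control.

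Within replicate numbers the differences in Ednrb were unequal. Metatherian minus control was -0.45, -0.36 and -1.55 in log2 CPM for numbers 1, 2 and 3, all of them negative. Eutherian minus control was -0.96, 0.10 and -3.35, so number 2 did not share the direction. Around the group means, the residual SD of Ednrb was 0.882 in log2 CPM against a median of 0.215 over 10095 genes, and 3.67% of genes had a larger one.

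Single libraries decided the size of the difference in Ednrb. Without control library 3, the highest, the log2 fold change with metatherian CRX was -0.12 in place of -0.93, and with eutherian CRX -0.69 in place of -1.33. Without eutherian library 3 the eutherian value was -0.62, while without eutherian library 2 it was -2.01. Without eutherian library 3 the difference between the CRX groups also turned over, from 0.40 to -0.18, while with another library left out it reached 1.13.

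Ednra, the other receptor, was likewise lower on average with both CRX proteins, and again by less than the test could call. Its level was 22.4, 17.1 and 43.2 CPM in control, 15.4, 19.7 and 17.2 CPM with eutherian CRX and 13.9, 14.0 and 27.2 CPM with metatherian CRX. Control library 3 was the highest of all and metatherian library 3 the next, and the groups overlapped in both comparisons with control.

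For metatherian CRX against control the log2 fold change of Ednra was -0.59 ± 0.27 (95% interval -1.23 to 0.04; edgeR adjusted p = 0.283). Against the same control libraries, eutherian CRX gave -0.55 ± 0.27 (edgeR adjusted p = 0.665), and this value was -0.21 without eutherian library 3, -0.34 without control library 3 and -0.87 without eutherian library 2. The metatherian value was -0.34 without control library 3. Between the CRX groups the difference was -0.04 (-0.68 to 0.60; edgeR adjusted p = 0.971), so a difference of up to 0.68 on the log2 scale between the effects of the human and the opossum protein lies within the interval. With single libraries left out, this difference ran from -0.36 to 0.29. Within replicate numbers, metatherian minus control was -0.69, -0.28 and -0.67 and eutherian minus control -0.54, 0.21 and -1.33 in log2 CPM.

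**Figure D2:**
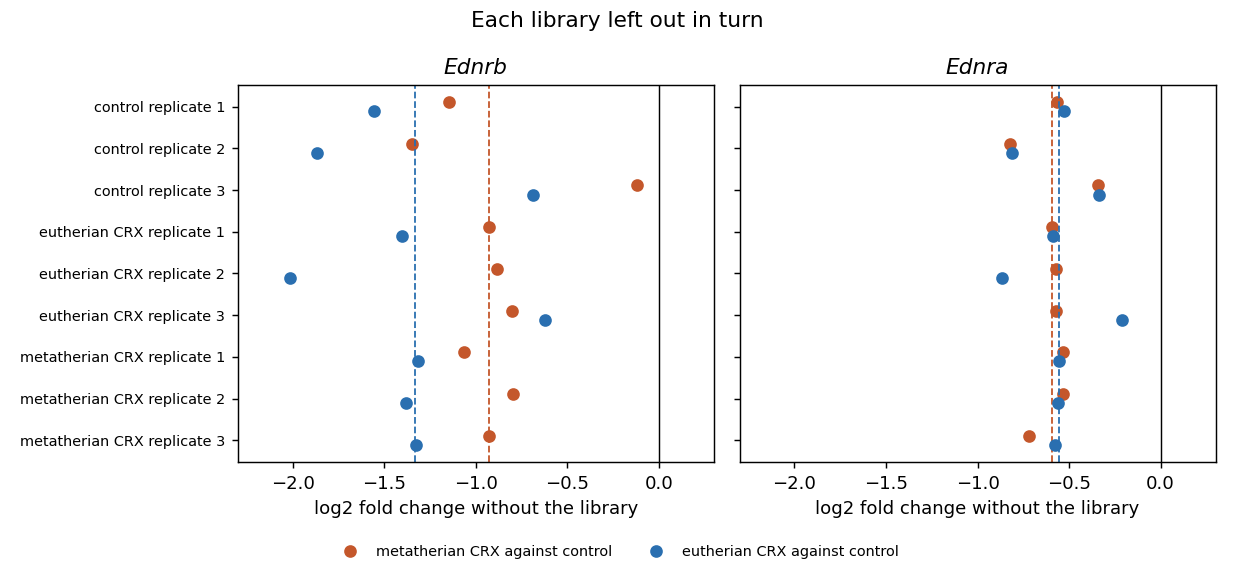
Log2 fold change (horizontal axis) of Ednrb and Ednra against control after leaving out the library named on the vertical axis; dashed lines give the value with all 9 libraries. Ednrb with metatherian CRX moves to -0.12 without control library 3, whereas Ednra stays between -0.82 and -0.34 in that comparison.

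The balance of the receptors was compared within each library, where depth and scaling cancel. Ednrb made up 53.9%, 51.2% and 41.7% of the summed FPKM of both receptors in control libraries 1 to 3. The share was 46.6%, 49.3% and 14.9% with eutherian CRX and 58.0%, 49.9% and 28.0% with metatherian CRX. The library numbered 3 had the lowest share in every group, control included, and the groups overlapped.

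The mean log2 ratio of Ednrb to Ednra was -0.06 ± 0.37 in the control libraries, -0.92 ± 1.38 in the eutherian ones and -0.30 ± 0.95 in the metatherian ones (SD, n = 3). Against control it differed by -0.24 for metatherian CRX (two-sided exact permutation p = 0.8) and by -0.85 for eutherian CRX (exact permutation p = 0.5). The CRX groups differed by 0.61 (exact permutation p = 0.5). With 3 libraries against 3 this test cannot go below 0.1, and it does not use the replicate numbers. Within numbers 1, 2 and 3 the ratio differed by -0.42, -0.11 and -2.03 for eutherian CRX against control and by 0.66, 0.03 and 1.146 for metatherian against eutherian CRX, 1 direction in each, and by 0.24, -0.08 and -0.88 for metatherian CRX against control. Flipping the signs of these differences in an exact permutation test gave p = 0.25 for the eutherian CRX and the direct comparison, the smallest that 3 pairs allow, and p = 0.75 for metatherian CRX against control. Without eutherian library 3 the eutherian difference from control was -0.05 and that between the CRX groups turned from 0.61 to -0.18. Without metatherian library 3 the metatherian difference from control turned from -0.24 to 0.29. In the libraries numbered 3, Ednra was 1.14 above the mean of libraries 1 and 2 in control, at -0.01 from it with eutherian CRX and 0.96 above it with metatherian CRX (log2 CPM). Ednrb was 0.51 above it in control and stood at -2.40 and -0.63 with eutherian and metatherian CRX.

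**Figure D3:**
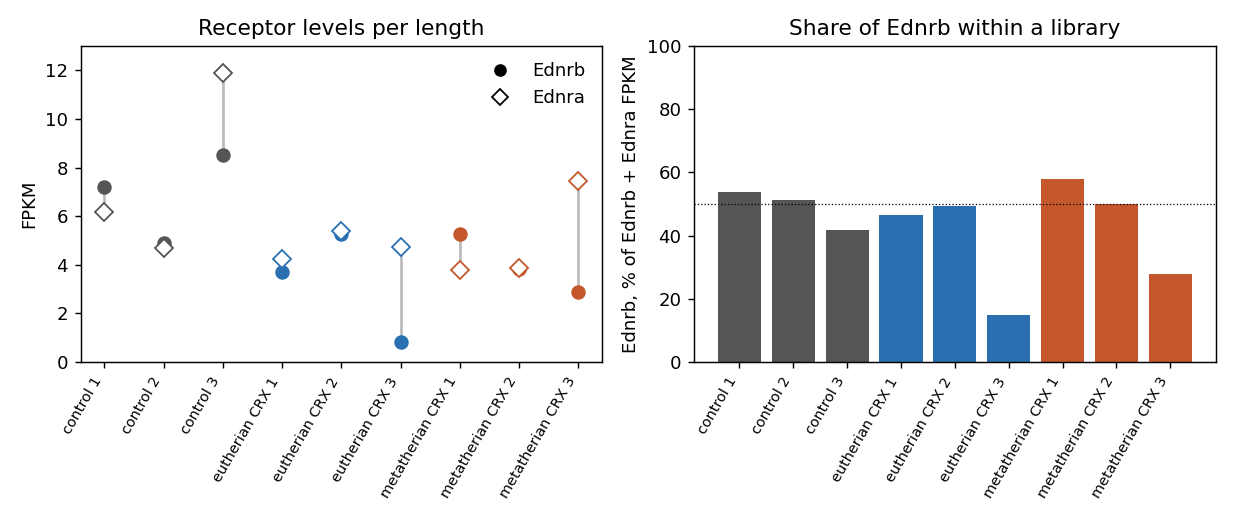
Left, FPKM of Ednrb (filled circles) and Ednra (open diamonds) in each library; right, Ednrb as a percentage of the FPKM of both receptors, with a dotted line at 50. In libraries 1 and 2 of the groups the share of Ednrb lies between 46.6% and 58.0%. In library 3 it is lower, at 41.7% in control, 28.0% with metatherian CRX and 14.9% with eutherian CRX.

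Edn1, the ligand of the vascular and jaw systems, was the member whose libraries separated the groups most cleanly, at a low level. It had 3.66, 3.90 and 3.39 CPM in control, 2.84, 2.36 and 1.79 CPM with eutherian CRX and 2.19, 1.65 and 2.65 CPM with metatherian CRX, from 125 to 361 counts. Every control library was above every CRX library. Its mean FPKM was 1.56 in control, 0.995 with eutherian and 0.924 with metatherian CRX, under the minimum of 2, so its test comes from the fit on the 14599 genes kept by count alone.

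In that fit, the log2 fold change of Edn1 was -0.76 ± 0.26 with metatherian CRX (95% interval -1.38 to -0.15; unadjusted p = 0.0218, edgeR adjusted p = 0.177) and -0.66 ± 0.26 with eutherian CRX (edgeR unadjusted p = 0.0378, adjusted p = 0.473). It was lower than control in 3 of 3 pairs for both proteins. Between the CRX groups the difference was -0.10 (-0.72 to 0.51; edgeR adjusted p = 0.916). It ran from -0.38 to 0.11 when single libraries were left out, and was -0.41 by limma's voom with library quality weights. Without metatherian library 3 the metatherian value was -1.06 and passed the threshold (edgeR adjusted p = 0.0480), as did 7.15% of all genes in that fit. It also passed without all libraries numbered 3 (-0.996, edgeR adjusted p = 0.0106), where 23.2% of genes did. Over all alternatives the adjusted p of this comparison ran from 0.000968, by limma's voom with library quality weights, to 0.725.

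The separation of Edn1 stands against a common background. In the comparison of metatherian CRX with control, 2 of the 6 genes, Edn1 and Ece1, had libraries that did not overlap, and so did 3479 of 14599 genes, 23.8%. With eutherian CRX this held for 1 of the 6 genes, Edn1, and for 2095 of 14599 genes, 14.4%. At an unadjusted p under 0.05, Edn1 was likewise 1 of 2984 genes (20.4%) with metatherian CRX and 1 of 1409 genes (9.65%) with eutherian CRX in the same fit.

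Edn3, the ligand that acts with Ednrb in the neural crest, was not detected. It had 2 counts in metatherian library 3 and 0 counts in each of the other 8 libraries, which is under the limit of 3 counts everywhere. Edn2, the remaining ligand of the family, was scarce and uneven. Its level was 0.309, 0.725 and 0.252 CPM in control, 0.465, 0.535 and 0.541 CPM with eutherian CRX and 1.59, 1.78 and 0.307 CPM with metatherian CRX. Metatherian libraries 1 and 2, with 126 and 135 counts, were the highest and library 3, with 20 counts, lay among the controls. The log2 fold change with metatherian CRX was 1.43 ± 0.55 (edgeR unadjusted p = 0.0340, adjusted p = 0.208 over 14599 genes).

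Ece1, the converting enzyme active at the cell surface, was lower on average with both CRX proteins by a small amount. Its level was 293, 361 and 313 CPM in control, 283, 299 and 193 CPM with eutherian CRX and 269, 291 and 198 CPM with metatherian CRX. All metatherian libraries were below all control libraries, while the highest eutherian library overlapped control. The library numbered 3 was the lowest in both CRX groups.

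The log2 fold change of Ece1 was -0.39 ± 0.15 with metatherian CRX (95% interval -0.74 to -0.05; edgeR unadjusted p = 0.0307, adjusted p = 0.210) and -0.36 ± 0.15 with eutherian CRX (edgeR unadjusted p = 0.0420, adjusted p = 0.554). Without control library 3 these values were -0.22 and -0.19. Metatherian against eutherian CRX gave -0.03 (-0.38 to 0.31; edgeR adjusted p = 0.958). The pairs were negative in 3 of 3 for either protein, with metatherian minus control at -0.12, -0.31 and -0.66 and eutherian minus control at -0.05, -0.27 and -0.70 in log2 CPM.

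Ece2, an enzyme that works at an acidic pH inside the secretory pathway, was the only member whose mean was highest in the eutherian group. Its level, with the exons shared with Gm49333 and Eef1akmt4 pooled in, was 36.4, 36.3 and 29.1 CPM in control, 41.8, 44.4 and 23.4 CPM with eutherian CRX and 31.2, 27.2 and 25.8 CPM with metatherian CRX. Eutherian libraries 1 and 2 were the highest of all and eutherian library 3 the lowest, so the groups overlapped. The log2 fold change was 0.05 ± 0.17 with eutherian CRX (edgeR adjusted p = 0.966), -0.29 ± 0.16 with metatherian CRX (edgeR adjusted p = 0.381) and -0.34 between metatherian and eutherian CRX (95% interval -0.73 to 0.05; edgeR adjusted p = 0.483). Without the libraries numbered 3, the last of these was -0.56 and passed the threshold (edgeR adjusted p = 0.00869), as did 22.6% of all genes. It was -0.54 without eutherian library 3 alone, -0.19 without eutherian library 2, -0.21 without metatherian library 2 and -0.15 without all libraries numbered 2, and the metatherian difference from control was -0.16 without metatherian library 2. Over all alternatives the adjusted p of metatherian against eutherian CRX ran from 0.000513, by voom with quality weights, to 0.99995.

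**Figure D4:**
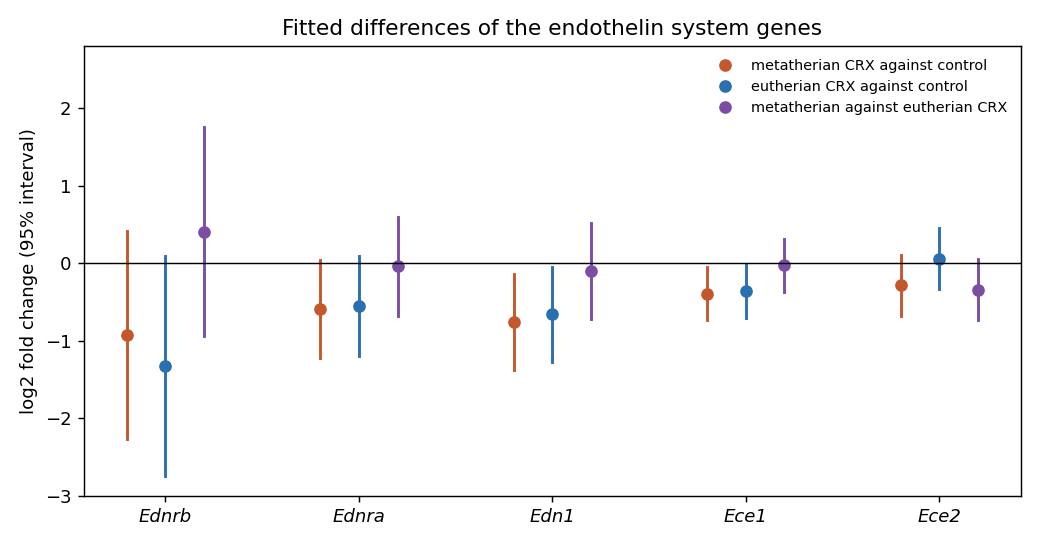
Log2 fold change (vertical axis, points) with its 95% interval (lines) of the 5 measured genes in the 3 comparisons, from the edgeR fit. The interval of Ednrb is the widest, from -2.75 to 0.09 with eutherian CRX, and only the intervals of Edn1 and Ece1 against control lie below 0.

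Over the 4 genes kept by both filters, none was called at an adjusted p under 0.05 by edgeR in any comparison. Over all genes the number of calls depended strongly on the method and on the libraries numbered 3. By edgeR, with metatherian CRX against control 3 of 10095 genes were called, 0.0297%, with eutherian CRX against control 62 genes, 0.614%, and between the CRX groups 0 genes, 0%. In the same order DESeq2 called 1010, 335 and 319 genes, but 0 of the 4 members in each comparison. At an unadjusted p under 0.05 in edgeR, 1 of the 4 genes, Ece1, was lower with metatherian CRX, where 19.6% of all genes passed in either direction, and 1 of the 4, again Ece1, with eutherian CRX, where 8.58% passed. In the comparison of the CRX groups 0 of the 4 passed and 11.6% of all genes did. The comparisons with control share the same control libraries, so the values of the members in both are not independent. By limma's voom with library quality weights, 3 of the 4 genes passed with metatherian CRX (Ednra, Ece1 and Ece2), 1 with eutherian CRX (Ednrb) and 2 between the CRX groups (Ednrb and Ece2). Calls were common in that fit, which passed 46.3%, 16.9% and 48.2% of all genes in these comparisons. Edn1, tested among the genes kept by count alone, passed in all 3 comparisons by that method, as did 41.6%, 14.2% and 43.2% of those genes. That fit gave the libraries numbered 3 weights of 0.120 to 0.272 against 0.415 to 4.67 for the others.

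Around the receptors, the pathway list held 49 further genes of endothelin processing, signalling, desensitisation and development, all in the table, of which 32 were kept by both filters and 0 were called by edgeR in any comparison. At an unadjusted p under 0.05 in edgeR, 6 were higher and 3 lower with metatherian CRX, 28.1% of the 32 against 19.6% of all genes. With eutherian CRX 1 was higher and 1 lower, 6.25% against 8.58%. From eutherian to metatherian CRX 4 were higher and 1 lower, 15.6% against 11.6%. The median log2 fold changes of the list were -0.05, -0.03 and 0.02 in this order, and those of all kept genes -0.01, 0.00 and -0.01.

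Among the 16 kept genes of G proteins and phospholipase signalling, Prkca, the conventional protein kinase C that diacylglycerol activates below Gq, had the smallest p. It was at 133, 125 and 112 CPM in control, 153, 134 and 138 CPM with eutherian CRX and 189, 193 and 178 CPM with metatherian CRX. All metatherian libraries were above all 6 others. Between metatherian CRX and control, the libraries of 23.8% of 14599 genes did not overlap. This share was not computed between the CRX groups. Its log2 fold change was 0.58 ± 0.09 against control (edgeR unadjusted p = 4.78e-04, adjusted p = 0.0722) and 0.39 against eutherian CRX (edgeR adjusted p = 0.279). Gna13, an alpha subunit of a heterotrimeric G protein, was 0.39 higher (edgeR adjusted p = 0.151), Itpr3, a receptor for inositol trisphosphate, 1.42 higher (edgeR adjusted p = 0.223) and Plcb4, a phospholipase, was at -0.63 (edgeR adjusted p = 0.180) with metatherian CRX. Itpr2, kept by count alone, was at -0.42 with eutherian CRX and at 0.67 between metatherian and eutherian CRX (edgeR adjusted p = 0.379 and 0.266).

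RGS proteins, which switch G protein signals off, held the gene with the largest difference among the 32 genes kept by both filters. Rgs5, a pericyte marker too, had 6.71, 4.95 and 21.2 CPM in control, 4.77, 6.53 and 104 CPM with eutherian CRX and 26.5, 52.5 and 117 CPM with metatherian CRX. All metatherian libraries were above all control libraries, and eutherian library 3 stood with the metatherian ones. The log2 fold change with metatherian CRX was 2.64 ± 0.62 (edgeR unadjusted p = 0.00405, adjusted p = 0.109). The pericyte and smooth muscle markers as a list, with Rgs5 in it, summed lower in the CRX libraries, as given above. Rgs4 had 49.8, 41.3 and 29.9 CPM in control, 20.9, 22.9 and 4.66 CPM with eutherian CRX and 21.4, 12.3 and 15.3 CPM with metatherian CRX. All CRX libraries were below all controls, with log2 fold changes of -1.48 with eutherian CRX (edgeR adjusted p = 0.360) and -1.28 with metatherian CRX (edgeR adjusted p = 0.182). Of 14599 genes, 14.4% had no overlap with control in the eutherian libraries and 23.8% in the metatherian libraries. Rgs2 was 0.56 higher with metatherian CRX (edgeR adjusted p = 0.135), and Rgs3, kept by count alone, was at -0.56 (edgeR adjusted p = 0.208). Against eutherian CRX, metatherian CRX gave 1.77 for Rgs5 and 0.45 for Rgs2 (edgeR adjusted p = 0.361 and 0.358).

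The jaw genes that act below Edn1 and Ednra were scarce, and 2 of the 7 were kept by both filters. Dlx5, a homeobox gene that Edn1 maintains in the lower jaw, was kept by count alone. It had 2.35, 2.15 and 1.96 CPM in control libraries, 2.36, 2.72 and 0.633 CPM in eutherian libraries and 1.70, 1.62 and 0.460 CPM in metatherian libraries. All metatherian libraries were below all controls, where 23.8% of 14599 genes had no overlap in either direction. The log2 fold change of Dlx5 with metatherian CRX was -1.02 ± 0.42 (edgeR unadjusted p = 0.0426, adjusted p = 0.228). Its neighbour Dlx6 had 18 counts or fewer in every library, with a log2 fold change of -1.96 with metatherian CRX (edgeR adjusted p = 0.237).

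Of the proteases that make the first cut, Pcsk6 had 86.8, 79.1 and 26.4 CPM in control, 64.5, 65.9 and 6.85 CPM with eutherian CRX and 29.3, 25.8 and 10.2 CPM with metatherian CRX. Metatherian library 1 lay above control library 3, so these groups overlapped. Its log2 fold change with metatherian CRX was -1.53 ± 0.36 (edgeR unadjusted p = 0.00424, adjusted p = 0.110). Pcsk5, kept by count alone, was at -0.66 with metatherian and -0.82 with eutherian CRX (edgeR adjusted p = 0.0833 and 0.0596). Ecel1, a relative of the converting enzymes, was at -0.94 between metatherian and eutherian CRX (edgeR adjusted p = 0.306). Furin itself was at -0.17 with metatherian CRX (edgeR adjusted p = 0.777).

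Genes of the neural crest, where Ednrb is best known, were present only in part. Mitf, the melanocyte regulator that fibroblasts also transcribe, had 22.9, 22.7 and 15.9 CPM in control, 28.0, 29.6 and 18.2 CPM with eutherian CRX and 34.9, 40.4 and 21.2 CPM with metatherian CRX. Metatherian library 3 was below control libraries 1 and 2, so the groups overlapped, and the log2 fold change was 0.60 ± 0.12 (edgeR adjusted p = 0.0868). Ret, the receptor kinase of enteric neuron precursors, was at 1.55 with metatherian CRX in the fit by count alone (edgeR adjusted p = 0.120). Gdnf, its ligand, was 0.64 higher with eutherian CRX than in control (edgeR adjusted p = 0.218). Sox10, which marks neural crest cells, had 10, 50 and 52 counts in control, 6, 2 and 4 counts with eutherian CRX and 0, 0 and 10 counts with metatherian CRX. From such low counts its log2 fold changes were -3.58 ± 1.02 with metatherian CRX (edgeR adjusted p = 0.128) and -3.03 ± 1.00 with eutherian CRX (edgeR adjusted p = 0.358). Pax3, another neural crest factor, was at -1.03 with eutherian CRX (edgeR adjusted p = 0.406). From eutherian to metatherian CRX, Mitf was at 0.33 and Gdnf at -0.60 (edgeR adjusted p = 0.358 and 0.296). Markers of the Schwann and melanocyte lineage (8 genes) summed to 3.04 to 5.67 CPM in control, 2.79 to 3.09 CPM with eutherian CRX and 4.202 to 5.77 CPM with metatherian CRX, and 6 of the 8 were under 1 CPM in all 9 libraries. Endothelial markers (8 genes) summed to 13.4 to 17.1, 14.6 to 19.3 and 11.7 to 19.5 CPM, with 5 under 1 CPM in all libraries and Cldn5 at 0 counts throughout. Macrophage markers (8 genes) summed to 11.8 to 44.2, 5.28 to 24.6 and 5.14 to 11.4 CPM, and epithelial markers (5 genes) to 0.848 to 3.45, 0.490 to 12.5 and 1.70 to 9.11 CPM. The part of these cells in the levels of Ednrb and Edn1 was not tested.

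The genes that each receptor resembled most across the 9 libraries are named as a description. They are the highest r among many genes, so different names need not set the receptors apart. By Pearson correlation of log2 CPM, given without a test because the libraries share groups and replicate numbers, Ednrb was nearest to Mmachc (r = 0.995), a gene of cobalamin processing, and to P4ha1 (0.983), a subunit of the collagen prolyl hydroxylase. Zcchc5 (0.982), Kdelr3 (0.978), a receptor that retains proteins in the endoplasmic reticulum, and Inpp1 (0.9755), an inositol phosphate phosphatase, came next. Ednra was nearest to Rbm5 (0.963), AW551984 (0.949), S1pr3 (0.945), a sphingosine phosphate receptor, Cdh2 (0.943), N-cadherin, and Ngfrap1 (0.923). Between the members, r was 0.34 for Ednrb and Ednra, 0.78 for Ednrb and Ece1 and -0.01 for Ednra and Ece1. In log2 CPM, Ednrb was at 1.86 in eutherian library 3 and at 3.66 to 5.21 in the other libraries. That library therefore weighs heavily in every r of Ednrb, and how far was not tested. A high r also does not mean an equal change, since Mmachc spanned 0.595 log2 units over the libraries and Zcchc5 4.32.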

How the data were processed

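RNA-seq libraries from MEFs were read as paired ends on 1 sequencing chip. The authors aligned the reads with STAR to mm10 (GRCm38), counted them per gene with featureCounts and deposited raw counts, neither normalized nor pooled; annotation release, strand option and treatment of multi-mapping reads are not given in the sources used here. Groups follow the labels, which give 3 replicate numbers in each. Genes were kept by filterByExpr (14599 of 22068) and by a mean FPKM over 2 in at least 1 group (10095), FPKM being computed from counts and merged exon length. Differences were tested in edgeR 4.0.16 (TMM, quasi-likelihood, all 9 libraries, replicate number as a block). Benjamini-Hochberg adjustment ran over all kept genes, with a threshold of 0.05. The study prepared its samples in pairs, but that equal numbers were prepared together is an assumption made here. The test was checked on counts simulated without replicate effects or outlying libraries, so the check does not cover these features of the data. limma 3.58.1 (voom) and DESeq2 1.42.0 served as alternatives. CPM used TMM factors, with a prior count of 2 on the log2 scale. Same-numbered libraries deviated together (r over 0.1) in 8 of 9 pairs, against 5 of 18 other pairs. The r ran from 0.004 to 0.751 in same-numbered pairs and from -0.732 to 0.722 in the others. Deviations were taken from group means of 3 libraries, which pushes some r below 0, so these values do not settle the pairing. Separate cultures are not stated, so p-values may measure technical spread only. Counting limits cover counting error only. Members, lists and motif were chosen with earlier results of these data known. All members are named, and list genes where an unadjusted p was under 0.05, at most the 4 smallest per list and comparison, with Furin added as the best-known of its list. The 5 genes nearest to each receptor in correlation are named.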

Additional observations from a re-analysis of the deposited data

How the results depend on the processing

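Each result was recomputed under other normalization, filters and tools, without the replicate block and without each library or number in turn. Of 399 recomputed values, 363 kept their direction or count with no call gained or lost, 20 changed sign, 12 came to pass the threshold and 4 counts moved; the cause was not tested. The 363 hold 22 values of the receptor ratio, whose exact test cannot pass, 59 member counts and 7 values by DESeq2 on rounded FPKM without an adjusted p; the ratio and these 7 show no side of the threshold. The number of genes called over all (metatherian CRX against control, eutherian CRX against control, metatherian against eutherian CRX) was 3, 62 and 0 in the fit reported, 0, 0 and 0 without the block, 1010, 335 and 319 by DESeq2, 42, 10 and 2 by DESeq2 on rounded FPKM, 4678, 1711 and 4867 by voom with quality weights, 2, 91 and 0 with filterByExpr alone, 2, 109 and 0 with no filter, and 402, 0 and 0 in fits of 6 libraries. It was 892, 0 and 351 without eutherian library 3, 486, 115 and 147 without metatherian library 3, 2258, 345 and 2280 without all libraries numbered 3, 0, 30 and 0 without metatherian library 2, and 0 throughout without any other library or number. By voom, which called 46.3%, 16.9% and 48.2% of genes, the members called were 3 (metatherian CRX against control), 1 (eutherian CRX against control) and 2 (metatherian against eutherian CRX), with Ednra at -0.51 and Ednrb at -0.92 and 0.48 (log2) in these comparisons (Ednrb in the last 2). Some values shrank in that fit. Ednrb with metatherian CRX was at -0.44 in place of -0.93, and Ece1 at -0.24 and -0.16 with metatherian and eutherian CRX in place of -0.39 and -0.36. Others grew, such as Edn1 with metatherian CRX, at -0.96 in place of -0.76. Without the libraries numbered 3 the count of members called by edgeR between the CRX groups was 1, and it was 0 without any other number or library.

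Between the CRX groups, the difference of Ednra was 0.0679 with no replicate block and 0.0566 by DESeq2 on rounded FPKM in place of -0.04, and leaving out replicates it ranged from -0.36 to 0.29. The same range was -0.18 to 1.13 for Ednrb, -0.436 to 0.11 for Edn1 and -0.13 to 0.0618 for Ece1, and -0.10 to 0.26 for Ece2 with eutherian CRX against control. The log2 ratio of Ednrb to Ednra ranged from -0.62 to 0.29 (metatherian CRX against control), from -1.29 to -0.05 (eutherian CRX against control) and from -0.18 to 1.14 (metatherian against eutherian CRX). With no replicate block Ednrb was at -0.81, -1.10 and 0.29 in the 3 comparisons and Ednra at -0.62 and -0.68 against control, and no call on a member changed. Edn3 passed neither filterByExpr nor the FPKM minimum and is given no value. Low counts limit Edn2 and Edn3, and Edn1 was under the FPKM minimum.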
